A study of Caenorhabditis elegans with 2 samples.

Results

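The stretch of chromosome II around sdz-38, the gene whose product was tagged for this chromatin immunoprecipitation and sequencing (ChIP-seq) experiment, held more called regions than most stretches of that chromosome of the same length. The stretch runs from 60 kb before to 60 kb after the gene, 120975 bp in all, and contains the galectin gene lec-3, the zinc-finger gene egl-43 and the kinase-subunit gene aakg-5. A region was taken when its summit, the base of highest signal within it, lay in the stretch. By this rule 33 of 17743 regions of replicate 1, 23 of 12648 regions of replicate 2, 10 of 1242 regions of the pooled list and 1 of 102 peaks of the optimal list were chosen. The replicate and pooled lists are labelled as peaks and background, the input to the reproducibility step that kept the optimal list. A region called in them is therefore only one that is listed, and many can be background. The stretch was itself selected on the number of regions near sdz-38 in these same lists, so the counts, signal values and ranks below are a description and no test was run on them.

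Both replicates were of 1 group. Per the labels, these were whole young adult worms (Caenorhabditis elegans, strain OP543, hermaphrodite), grown for 64 hours after starved L1 larvae had been used to bring the population to one age. The animals stably expressed SDZ-38 with GFP and FLAG at its C terminus, and the description states that GFP was the target of the antibody, although the antibody field names sdz-38. The labels call the modification an insertion targeting sdz-38 and do not state how many copies of the gene the strain carries or how much flanking DNA was inserted, and the part of either in the counts and signal values round sdz-38 was not tested. A whole animal mixes many tissues, so the cell type in which a region arose cannot be told. Per the deposited file notes, each replicate's list was called from its own alignment against 1 control alignment. The control library and animals without the tag were not analysed here, and whether any region marks SDZ-38 itself was not tested.

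sdz-38 takes its name from SKN-1-dependent zygotic expression: SKN-1 is a maternally supplied transcription factor that starts the endoderm and mesoderm programme of the early worm embryo. The product is annotated as a C2H2-type domain protein, a zinc-finger class often found in DNA-binding proteins. Galectins such as LEC-3 bind beta-galactoside sugars. EGL-43 is a zinc-finger transcription factor of the PRDM and EVI1 family that acts in the migration of the HSN motor neurons and in the anchor cell of the gonad. AAKG-5 belongs to the gamma subunits of AMP-activated protein kinase, the part of that kinase that senses adenine nucleotides.

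Coordinates are those of build ce11 (WBcel235), with the RefSeq annotation. sdz-38 (WBGene00014131) occupies chrII:9980886-9981860 on the minus strand. lec-3 (WBGene00002266) begins 9300 bp away on the side of the sdz-38 start and runs on the plus strand at chrII:9991160-10000350, so that the genes point away from each other. On the opposite side lie aakg-5 (WBGene00011276), at chrII:9971050-9974704 on the minus strand, and egl-43 (WBGene00001207), at chrII:9955185-9962995 on the plus strand. They are 6182 bp and 17891 bp from sdz-38. The flanks are called the lec-3 side and the egl-43 side here.

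The following 250 bases precede the annotated start of sdz-38 (chrII:9981861-9982110, minus strand, RefSeq genome WBcel235, 5′ to 3′). They are shown because the gene is named for its dependence on SKN-1, and capitals mark the letters ATCAT or GTCAT on either strand, the core of the SKN-1 site. The last block in capitals holds a pair of overlapping matches.
sdz-38 promoter: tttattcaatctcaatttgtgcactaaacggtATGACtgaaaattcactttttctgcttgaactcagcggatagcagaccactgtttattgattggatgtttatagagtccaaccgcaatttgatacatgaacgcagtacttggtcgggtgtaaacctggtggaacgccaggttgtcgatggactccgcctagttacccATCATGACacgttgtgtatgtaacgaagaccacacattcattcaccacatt
In the promoter window, from 250 bases before to 50 after the start, sdz-38 had 3 such matches, and 18.0% of the promoters of all 19971 nuclear protein-coding genes had as many or more. At least 1 match was present in 72.1% of those promoters, among them those of lec-3 and egl-43 with 1 match each, and aakg-5 had none. The MED core GTATACT, found in 1.73% of promoters, and the GATA letters TGATAA, found in 30.2%, were absent from the windows of all 4 genes. The POP-1 and TCF core CTTTGA or CTTTGT, found in 34.4% of promoters, occurred 2 times in aakg-5, 1 time in egl-43 and not in sdz-38 or lec-3. Both strands were searched for every motif. Of the windows reaching 100 bases to each side of a summit of the pooled list, 7 of 10 within 60 kb of sdz-38 held the SKN-1 core, against 51.9% of the 1211 on the rest of the nuclear genome.

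The sites called in the pooled list are represented by 4 windows, each reaching 100 bases to both sides of the pooled summit and given on the plus strand, 5′ to 3′. They are the strongest site of the stretch, the other intron site of the same gene, the site in aakg-5, and a site that only 1 replicate called. Capitals run from the lowest to the highest of the pooled summit and, from each replicate with an overlapping region, the summit nearest to it. Further summits of the replicates' overlapping regions lie outside the capitals. The first lies at chrII:9993417-9993617, the second at chrII:9994682-9994882, the aakg-5 site at chrII:9974052-9974252 and the dtmk-1 site at chrII:9964495-9964695.
lec-3 intron site: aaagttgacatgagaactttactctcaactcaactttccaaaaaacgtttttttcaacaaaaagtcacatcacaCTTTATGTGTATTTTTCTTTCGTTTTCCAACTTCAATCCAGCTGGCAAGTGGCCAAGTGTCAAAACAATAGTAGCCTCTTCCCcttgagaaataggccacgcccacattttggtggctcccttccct
second lec-3 intron site: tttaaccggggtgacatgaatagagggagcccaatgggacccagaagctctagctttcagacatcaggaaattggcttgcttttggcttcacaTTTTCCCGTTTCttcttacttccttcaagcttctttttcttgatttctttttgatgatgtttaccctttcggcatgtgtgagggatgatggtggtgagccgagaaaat
aakg-5 intron site: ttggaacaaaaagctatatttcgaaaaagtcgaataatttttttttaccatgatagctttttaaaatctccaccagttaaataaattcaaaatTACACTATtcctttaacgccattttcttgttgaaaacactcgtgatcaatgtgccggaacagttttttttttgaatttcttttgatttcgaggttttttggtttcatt
dtmk-1 intron site: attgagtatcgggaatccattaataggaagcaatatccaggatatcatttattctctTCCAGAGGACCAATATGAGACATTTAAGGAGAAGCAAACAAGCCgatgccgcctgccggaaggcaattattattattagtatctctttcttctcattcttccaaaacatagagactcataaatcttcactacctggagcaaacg
These nearest summits lay within 83 bases of each other, counting both ends, in the first lec-3 site, where replicate 1 also had one at 9993168 and replicate 2 one at 9993847. They lay within 12 bases in the second lec-3 site, within 8 bases in the aakg-5 site and within 44 bases in the dtmk-1 site. The windows were 40.3%, 43.8%, 28.4% and 38.8% G and C, in that order, so the aakg-5 site was the richest in A and T.

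The gene sdz-38 itself was not covered by a region in any of the 4 lists. The nearest region edges were 208 bp from it on the egl-43 side, in replicate 2, and 997 bp from it on the lec-3 side, in replicate 1, which leaves 2180 bp between these edges without a region. The nearest summit in replicate 1 was at 9980194, 692 bp from the gene, with a signal value of 17.2 and rank 7638 of its list. The signal value is the authors' score for a region, and its scale is not stated. In replicate 2 the nearest summit was at 9980446, 440 bp from sdz-38, with a signal value of 19.9. Both of these summits lay in the promoter of ZK892.6, the next gene on the egl-43 side, past the 3′ end of sdz-38. A stronger region of replicate 2, with its summit at 9979791 in a coding exon of ZK892.6, reached 30.2 and rank 136. It was 1095 bp from sdz-38, and its edge overlapped the region of replicate 1 whose summit was at 9980194. Upstream of the sdz-38 start, in the intergenic stretch that the gene shares with lec-3, replicate 1 had 5 summits at 1240 to 6276 bp from sdz-38, with signal values between 13.9 and 26.5. Replicate 2 and the pooled list had none there. Every region beside the start of the tagged gene thus came from replicate 1 alone. Regions of 1 replicate only are usual: on the rest of chromosome II, 27.3% of regions of replicate 1 overlapped one of replicate 2.

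lec-3 held the strongest site of the stretch. The optimal peak at chrII:9993289-9993744 lay in one of its introns, with its summit at 9993517, 103 bp upstream of an internal transcript start of lec-3. Its signal value was 63.5 in the pooled and optimal lists. The corresponding region of replicate 1 had its summit at 9993491, a signal value of 35.3 and rank 133 of 17743. In replicate 2 the summit was at 9993573, with a signal value of 40.8 and rank 50 of 12648, the strongest region of the stretch in that replicate. This was the sole optimal peak within 60 kb of sdz-38, and it ranked 94 of 102 in the optimal list. The lowest signal value kept in that list was 62.6, and the next pooled region of the stretch had 51.9, so the peak stood just inside the authors' threshold and the other 9 pooled regions stood below it.

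A second lec-3 intron site had its pooled summit at 9994782 with a signal value of 49.0. Replicate 1 placed its summit at 9994786 with 20.2, and replicate 2 at 9994775 with 23.5. Beside it replicate 2 had another overlapping region, with its summit at 9994550 and a signal value of 24.8. A further lec-3 site, at the end of the gene in a coding exon, had its pooled summit at 9999932 with 51.9. Replicate 1 called overlapping regions there with summits at 9999705 and 9999916 and signal values of 26.2 and 21.8, and replicate 2 called 1 with its summit at 9999905 and a value of 26.4. Each of the 3 sites was thus called in both replicates. Adjoining the end of lec-3 on the opposite strand, nlt-1, annotated as a non-specific lipid-transfer protein-like gene, had a pooled summit at 10000880 with 39.8. Replicate 1 had 31.7 there, at 10000904 and rank 260, and replicate 2 had no summit there.

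aakg-5 was the member with the widest difference between the replicates. Within 1000 bp of it replicate 1 had 7 summits and replicate 2 had 1, and regions covered 52.6% of the gene in replicate 1 and 12.7% in replicate 2. The site called in both lay in an intron, at 9974145 with a signal value of 25.8 in replicate 1 and at 9974148 with 19.2 in replicate 2. The pooled list placed it at 9974152 with 42.6. The strongest aakg-5 region of replicate 1, at 9972347 in a coding exon, had 34.2 and rank 164 and no counterpart in replicate 2 or the pooled list. Of the 7 summits of replicate 1, 5 lay in the gene. The others were at 9974873 in its promoter and at 9970214 in R53.5. Apart from the one in R53.5, these summits were close enough for regions to overlap, so the 7 are not 7 separate sites.

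egl-43 had 3 summits in replicate 1, at 9957052, 9961763 and 9961962, with signal values of 13.6, 28.9 and 17.4. It had 1 in replicate 2, at 9960527 with 14.9, and none in the pooled list. No egl-43 region of 1 replicate overlapped a region of the other, and the value of 28.9, in an intron near the end of the gene, was the only one of the 4 above 20. Overlap was the less common case on the rest of chromosome II too, at 27.3% of regions of replicate 1 and 36.7% of replicate 2. Regions covered 14.9% of egl-43 in replicate 1 and 5.94% in replicate 2.

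Between egl-43 and aakg-5 lay a dense run of small genes. dtmk-1, which encodes a thymidylate kinase, an enzyme of DNA precursor synthesis, held the strongest region of replicate 1 in the stretch, an intron summit at 9964552 with 40.6 and rank 67. The pooled list placed it at 9964595 with 46.2, and replicate 2 had no summit there. In the dtmk-1 promoter the order was turned round: replicate 2 had a summit at 9967221 with 27.3, the pooled list one at 9967212 with 47.9, and replicate 1 none. Another dtmk-1 intron site was called in both replicates and not in the pooled list. Replicate 1 had 14.2 there at 9965658, and replicate 2 had 19.1 at 9965678 and 19.6 at 9965961. Replicate 2 also had 30.4 and rank 132 at 9967945, in R53.4. Replicate 1 had 37.0 and rank 105 at 9970214, in a coding exon of R53.5, and 22.5 at 9969110 in psf-1, which encodes a subunit of the GINS complex of DNA replication. Several of the strongest regions on the egl-43 side were therefore called in 1 replicate only, as were most regions on the rest of chromosome II. There 27.3% of regions of replicate 1 and 36.7% of replicate 2 overlapped one of the other replicate.

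Farther out on the egl-43 side, 3 pooled regions lay between 37 and 47 kb from sdz-38. The first, in the acid phosphatase gene pho-11, had a pooled signal value of 44.6 at 9934115, 30.4 in replicate 1 and 19.7 in replicate 2. A site in the promoter of flad-1, which encodes an FAD synthase, had 42.8 in the pooled list at 9943763, 23.4 in replicate 1 and 18.3 in replicate 2. A site at the promoter of ufd-3, named for ubiquitin fusion degradation, and next to C05C10.5 had 40.7 in the pooled list at 9940587 and 23.1 in replicate 2, with no region in replicate 1. On the lec-3 side no pooled region lay beyond 20 kb.

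**Figure D1:**
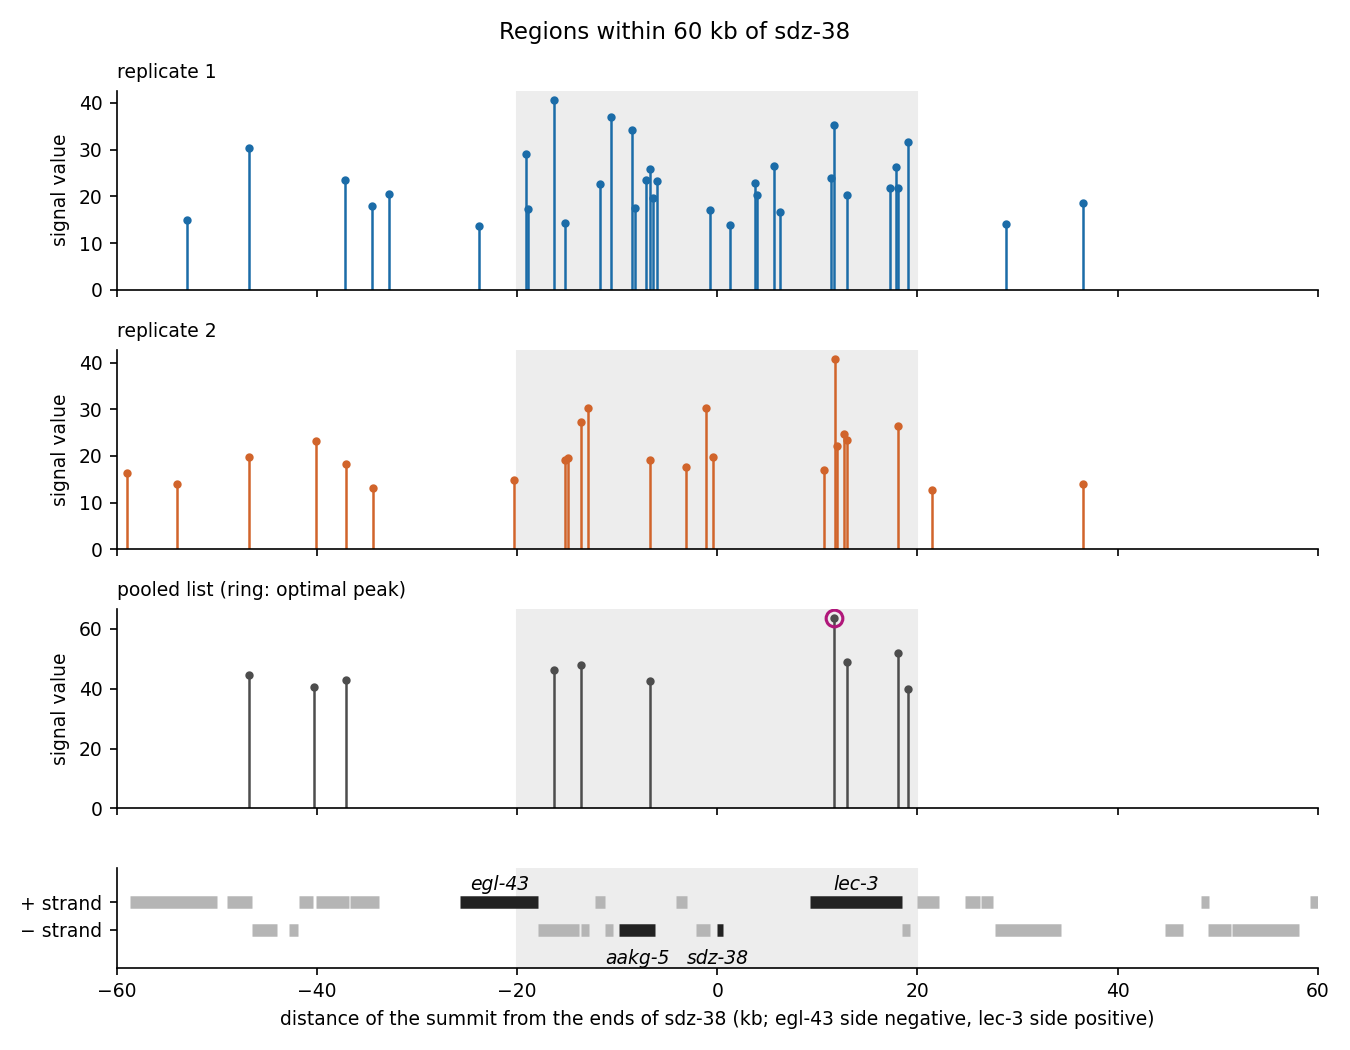
Signal value (the authors' score, vertical axis) of each region against the distance of its summit from the ends of sdz-38 in kb (horizontal axis), for replicate 1, replicate 2 and the pooled list, with a ring round the optimal peak and protein-coding genes as boxes by strand at the bottom, members in black. The shaded span reaches 20 kb to each side and holds 25 of 33, 14 of 23 and 7 of 10 summits.

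Regions lay denser within 20 kb of sdz-38 than from 20 to 60 kb, without a steady fall from the gene outward. Within 20 kb of sdz-38 replicate 1 had 6.10 summits per 10 kb, against 1 per 10 kb from 20 to 60 kb and 1.62 per 10 kb on the rest of chromosome II. Replicate 2 had 3.42 within 20 kb, against 1.125 from 20 to 60 kb and 1.19 on the rest of the chromosome. The pooled list had 1.71, 0.375 and 0.100 summits per 10 kb over the same spans. From 20 to 60 kb both replicates were therefore, on average, below the mean of the rest of the chromosome, while the pooled list was still 3.74 times that mean. The span within 20 kb made up 33.9% of the stretch and held 75.8% of its summits in replicate 1, 60.9% in replicate 2 and 70% in the pooled list.

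In bands of 10 kb, counted outward on the egl-43 side, replicate 1 had 7, 6, 1, 3, 1 and 1 summits, and on the lec-3 side 5, 7, 1, 1, 0 and 0. Bins of 10 kb elsewhere on chromosome II held 0 to 5 summits of replicate 1 in their central 95%. The drop between the second and the third band was thus from above that span, on both sides, to 1 summit. Replicate 2 had 4, 4, 1, 2, 2 and 2 summits on the egl-43 side and 0, 6, 1, 1, 0 and 0 on the lec-3 side, and bins elsewhere held 0 to 4. Its single band above that span was the one that holds most of lec-3. With both sides together, the first and second bands held 12 and 13 summits in replicate 1 and 4 and 10 in replicate 2. The pooled list had 1, 6, 0, 1, 2 and 0 over the bands. In none of these lists did the band nearest the gene hold the most. The egl-43 side held more summits than the lec-3 side, with 19 against 14 in replicate 1, 15 against 8 in replicate 2 and 6 against 4 in the pooled list.

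**Figure D2:**
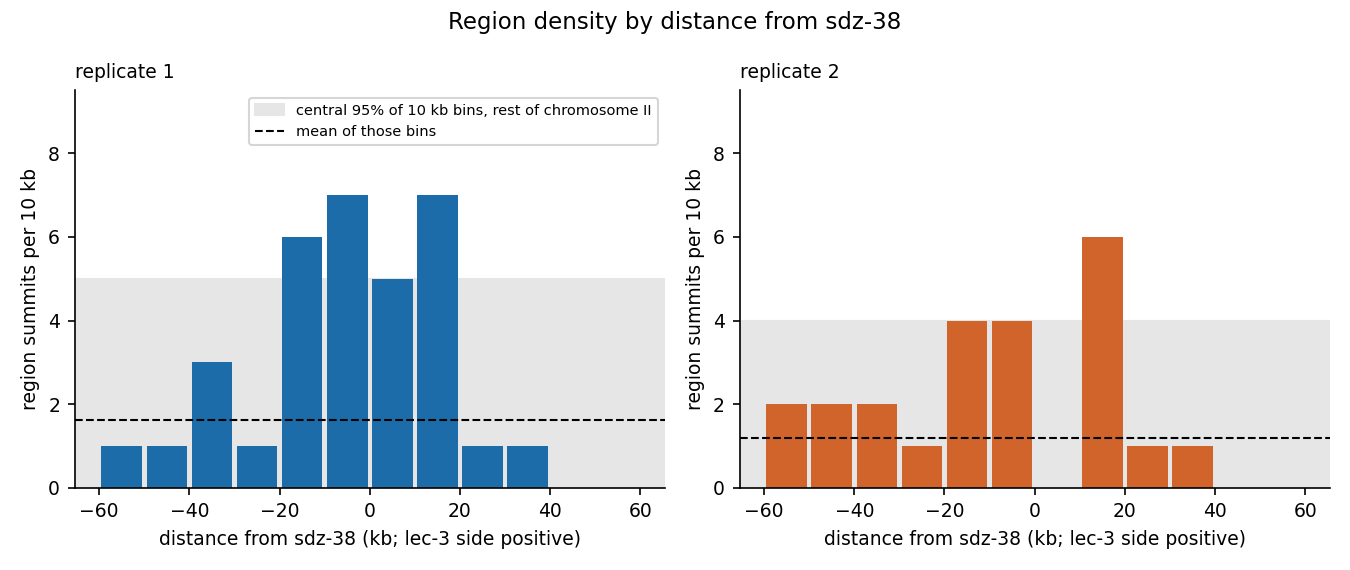
Summits per 10 kb (vertical axis) in bands of distance from sdz-38 in kb (horizontal axis, lec-3 side positive), for each replicate. The grey field spans the central 95% of 10 kb bins on the rest of chromosome II and the dashed line is their mean of 1.62 in replicate 1 and 1.19 in replicate 2: the bars within 20 kb stand highest, and the first band on the lec-3 side is empty in replicate 2.

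Neighbouring summits within 20 kb were a median of 1105 bp apart in replicate 1 and 1104 bp apart in replicate 2, against 3834 bp and 5226 bp on the rest of the chromosome. The replicates differed at the end of the dense run on the lec-3 side. After the summit at 10000904 in nlt-1, the next summit of replicate 1 followed 9846 bp later, in lec-2, another galectin gene. In replicate 2 the summit at 9999905 in lec-3 was followed 3444 bp later by one in ZK892.3, closer than the chromosome's median gap. After the last summits within 60 kb, at 10018353 in replicate 1 and 10018440 in replicate 2, no summit followed for 26985 bp and 26951 bp, past let-268, which encodes a procollagen lysyl hydroxylase. Gaps at least that long made up 1.67% of the gaps of replicate 1 and 4.83% of those of replicate 2 on the rest of chromosome II.

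Against 125 windows of equal length that tile the rest of chromosome II without overlap, the 60 kb stretch held 33 summits of replicate 1, where the windows had a median of 19 and at most 31. It held 23 summits of replicate 2, where the windows had a median of 15 and at most 27, and 6 of 125 held as many or more. In the pooled list it held 10, against a median of 1 and at most 7. The stretch was above every tiled window in replicate 1 and the pooled list and within the upper end of them in replicate 2. In the optimal list it held 1 peak, as did 11 of the 125 windows, so the optimal list alone does not set it apart. When the window was moved in steps of 1 kb, 17 of 14917 positions clear of the stretch reached 33 in replicate 1, with a highest count of 35. In replicate 2, 680 positions in 16 separate places reached 23, with a highest count of 30, and in the pooled list none reached 10. Windows that overlapped the stretch reached 39, 25 and 11 in replicate 1, replicate 2 and the pooled list, from starts at 9880001, 9879001 and 9880001. The 60 kb counts were thus higher in windows shifted toward the egl-43 side than in the one centred on sdz-38. Many regions of a list overlapped each other. With overlapping regions merged, the stretch held 25 sites in replicate 1 and 20 in replicate 2, and 11 and 10 of the 125 windows held as many or more.

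Within 20 kb, a window of 40975 bp, the counts were 25 in replicate 1, 14 in replicate 2 and 7 in the pooled list. The 371 equal windows elsewhere had medians of 6, 5 and 0 and highest counts of 15, 14 and 4. In steps of 1 kb, none of 15157 positions elsewhere reached 25 in replicate 1, where the highest was 19, or 7 in the pooled list, where the highest was 6, and 42 positions in 3 separate places reached 14 in replicate 2. On the other chromosomes windows as dense were found mostly on X. Of 2010 autosomal windows, those of chromosome II included, 0, 3 and 0 reached the counts of replicate 1, replicate 2 and the pooled list, against 6, 46 and 4 of 432 windows on X. At 60 kb the stretch was close to a typical window of X: its 33 and 23 summits in the replicates stood against X medians of 31 and 21, and 59 and 60 of 146 windows of X held as many or more, as did 12 in the pooled list. Merged, the span within 20 kb held 17 sites in replicate 1 and 11 in replicate 2, and 0 and 3 of the 371 windows on chromosome II held as many or more.

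**Figure D3:**
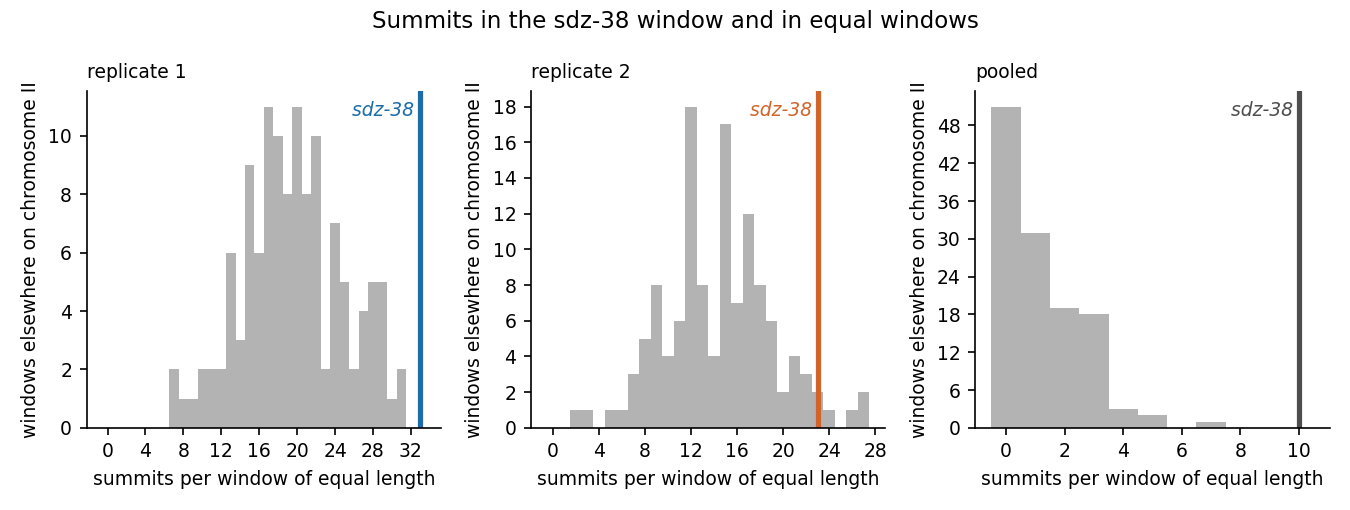
Number of windows of equal length elsewhere on chromosome II (vertical axis, 125 windows in all) by the number of summits each holds (horizontal axis), for replicate 1, replicate 2 and the pooled list. The coloured line is the 60 kb stretch round sdz-38, at 33, 23 and 10 summits, and it lies to the right of every window in replicate 1 and the pooled list, while some windows reach it in replicate 2.

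The densest other windows of chromosome II had fewer pooled regions. Named by the protein-coding gene nearest to their centre, those of replicate 1 were at rrf-3 and F37H8.5 with 31 summits each, srw-66 with 30, and srw-60, gadr-4, nep-12, algn-9 and F15D4.5 with 29 each. Those of replicate 2 were at R05F9.9 and dnj-20 with 27 each, pro-2 with 26, rrf-3 with 24, and gadr-4 and T05A7.13 with 23 each. In the pooled list the stretch round sdz-38 held 10 regions, against 0 in the gadr-4 window, 3 in the rrf-3 window and 5 in the R05F9.9 window.

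The regions near sdz-38 had higher signal values as well as being more numerous. Within 20 kb the median signal value was 22.8 in replicate 1 and 22.8 in replicate 2, against 16.4 and 15.4 on the rest of chromosome II. From 20 to 60 kb the medians were 18.3 in replicate 1 and 14.9 in replicate 2, so that those of replicate 2 were no longer above the rest. In the strongest 25% of its list lay 66.7% of the 33 regions of replicate 1 (22 regions), against 24.0% of the rest of the chromosome. For replicate 2 the shares were 65.2% of 23 regions (15 regions), against 23.9%. In the pooled list the median was 47.9 within 20 kb and 45.4 within 60 kb, against 44.1 on the rest. In the strongest 25% of that list lay 28.6% of the 7 regions within 20 kb and 20% of the 10 within 60 kb, against 19.7%. Pooled regions within 60 kb were thus more numerous without being much stronger. When only the strongest 1000 regions of each list were counted, the 60 kb stretch held 10, 8 and 9 summits in replicate 1, replicate 2 and the pooled list, against a median of 1 in each list and highest counts of 5, 5 and 7 elsewhere. These 1000 are a small part of the replicates' 17743 and 12648 regions but most of the 1242 pooled ones, so the pooled count was hardly restricted.

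**Figure D4:**
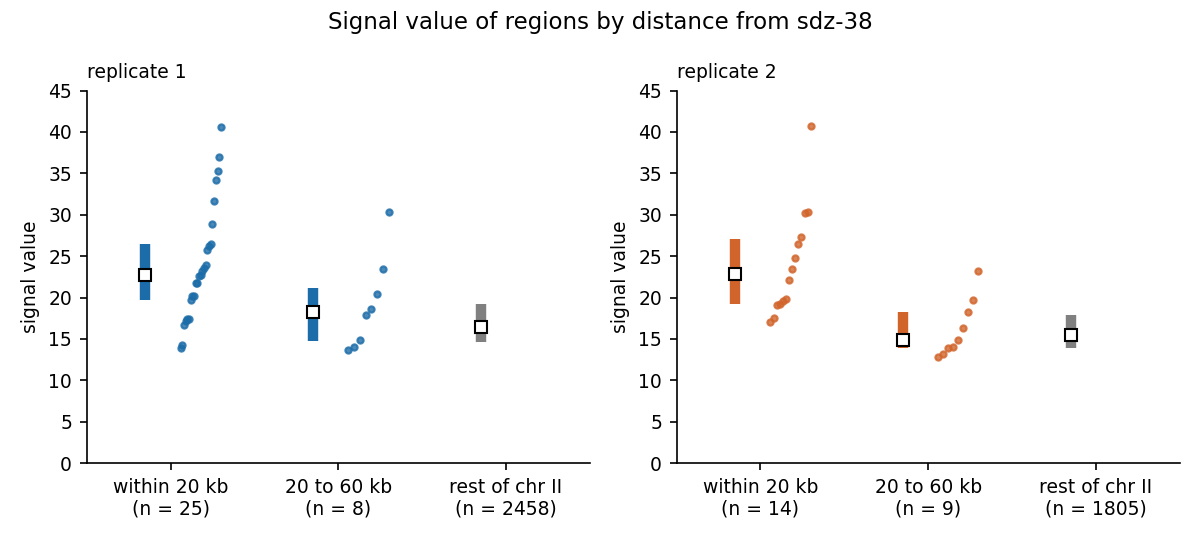
Signal value (the authors' score, vertical axis) of regions within 20 kb of sdz-38, from 20 to 60 kb, and on the rest of chromosome II (horizontal axis), for each replicate. Squares are medians, bars run from the first to the third quartile, points are single regions of the stretch sorted by value, and the medians within 20 kb are 22.8 in both replicates, against 16.4 and 15.4 on the rest of the chromosome.

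The replicates met more often here than on the rest of the chromosome. A region of the other replicate overlapped, by at least 1 bp, 14 of 33 regions of replicate 1 (42.4%, exact 95% interval 25.5% to 60.8%), against 27.3% on the rest of chromosome II. The same held for 14 of 23 regions of replicate 2 (60.9%, interval 38.5% to 80.3%), against 36.7%. The Clopper-Pearson intervals cover counting error only, regions are not independent replicates, and the interval of replicate 1 includes the share of the rest. Regions also lay denser here, and the part of that density in the overlap was not tested. Merged over all lists, the regions formed 34 sites, of which 25 had a region of replicate 1, 19 of replicate 2 and 10 of both. Overlapping regions of 1 list were counted separately in the shares above, and no share of merged sites is given for the rest of the chromosome. All 10 pooled regions lay in sites with a region of at least 1 replicate, 6 of them with both. The 6 are the 3 lec-3 sites and those in aakg-5, pho-11 and at flad-1, while dtmk-1 and nlt-1 rest on replicate 1, and the dtmk-1 promoter and ufd-3 on replicate 2.

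Counted by gene, all 4 members had a summit within 1000 bp in each replicate, where 56.2% of all nuclear protein-coding genes did in replicate 1 and 45.1% in replicate 2. In the pooled list 2 of 4 did, lec-3 with 4 summits and aakg-5 with 1, beside a background of 6.54%. In the optimal list lec-3 alone did, beside 0.491%. A summit within 1000 bp of more than 1 gene counts for each of them. Of the 4 pooled summits, 3 lay in lec-3 and the other was the nlt-1 site. The members were chosen from these lists, so nothing is read from the counts. lec-3 had 7 summits in replicate 1, 6 of them in the gene and the other in nlt-1, and 6 in replicate 2. Regions covered 26.9% and 25.6% of lec-3. sdz-38 had 1 in each replicate, a count that 52.3% of the other genes of chromosome II reached in replicate 1. By length, aakg-5 had 1.24 summits per kb of gene and flank in replicate 1, against 0.626 for lec-3, 0.336 for sdz-38 and 0.306 for egl-43. Of the 27 protein-coding genes that touch the stretch, 16 had a summit within 1000 bp in replicate 1, 17 in replicate 2, 11 in the pooled list and 1 in the optimal list.

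By position, introns held 12 of 33 summits of replicate 1, 8 of 23 of replicate 2 and 5 of 10 of the pooled list, against 24.1%, 23.2% and 20.4% on the rest of chromosome II. Promoters ran from 1000 bp before to 200 bp after the annotated start of a gene. They held 4 of 33, 6 of 23 and 4 of 10, against 615 of 2458, 485 of 1805 and 56 of 152 on the rest. Internal transcript starts were left out, so the optimal lec-3 summit, 103 bp upstream of one, counts as an intron summit. With internal starts included, the median distance of summits to the nearest transcript start was 1188 bp in replicate 1, against 1029.5 bp on the rest. It was 632 bp against 986 bp in replicate 2, and 463 bp against 715 bp in the pooled list. Intergenic summits differed between the replicates, with 7 of 33 in replicate 1 and 1 of 23 in replicate 2, against 15.8% and 16.2% on the rest, most of those of replicate 1 lying between sdz-38 and lec-3. The stretch was ordinary in base composition and gene number. It was 36.9% G and C, against a median of 36.0% over equal windows. It held the midpoints of 27 protein-coding genes, against a median of 26. Words of 31 bases that occur once in the genome made up 99.6% of those within 20 kb, against a median of 94.2%, and 29 of 371 windows were as high or higher. All 33 regions of replicate 1 and 22 of 23 of replicate 2 consisted of such words only, against 77.7% and 80.7% of the regions on the rest of the chromosome. The part of sequence uniqueness in the counts was not tested.

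Genes related to the members by name or pathway were counted in the same way, within 1000 bp. The background over all nuclear protein-coding genes was 56.2%, 45.1%, 6.54% and 0.491% in replicate 1, replicate 2, the pooled and the optimal list. Spans include the gene itself, so longer genes can hold more summits, and gene length was not matched in these lists. Chromosome was not matched either, and several AMPK genes lie on X, where windows held more summits. Members in the stretch were chosen with it, so shares outside the stretch are also given where a list holds lec-3, aakg-5 or egl-43. Of 32 sdz genes, 11 (34.4%) had a summit in replicate 1, 11 (34.4%) in replicate 2 and none in the pooled or optimal lists, all below the background. Within 20 kb, the sdz genes outside the stretch had at most 12 summits in replicate 1, 10 in replicate 2 and 4 in the pooled list, against 25, 14 and 7 for sdz-38. Of 18 genes of the SKN-1 endomesoderm network, 11 (61.1%) had a summit in replicate 1, 7 (38.9%) in replicate 2 and none in the pooled list. Of 12 galectin genes, 9 (75%) had a summit in replicate 1, 8 (66.7%) in replicate 2 and 4 (33.3%) in the pooled list. The 4 were lec-3, and lec-1, lec-9 and lec-11 with 1 pooled summit each, and lec-3 alone had an optimal peak. Of the 10 galectin genes outside the stretch, 7 (70%), 7 (70%) and 3 (30%) had a summit in replicate 1, replicate 2 and the pooled list. Of 9 AMPK subunit genes, 7 (77.8%) had a summit in replicate 1, 8 (88.9%) in replicate 2 and 2 (22.2%) in the pooled list. The 2 were aakg-5 and aak-2, a catalytic subunit gene on X with 3 pooled summits. aak-2 had 26 and 20 summits within 20 kb in the replicates, more than the 21 and 13 of aakg-5. Of the 8 AMPK genes outside the stretch, 6 (75%), 7 (87.5%) and 1 (12.5%) had a summit within 1000 bp in replicate 1, replicate 2 and the pooled list. Of 10 PRDM and anchor cell genes, 9 (90%) had a summit in replicate 1 and 8 (80%) in replicate 2. Of these genes lin-29, a zinc-finger gene of developmental timing, was the only one with a pooled summit (10%). Of the 9 outside the stretch, 8 (88.9%), 7 (77.8%) and 1 (11.1%) had a summit in replicate 1, replicate 2 and the pooled list.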

How the data were processed

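ChIP-seq regions of 2 replicates of 1 group were read from 4 lists of build ce11. Per the deposited file notes, the authors called each replicate's regions from its alignment and 1 control alignment, called the pooled list from both replicates together, and kept the optimal list by the irreproducible discovery rate procedure. The replicate and pooled lists are labelled as peaks and background, the input to that procedure. No source used here gives the aligner, the caller, their versions or the threshold. The authors' signal value per region is a score of unstated scale and was used only to describe and rank regions within a list. The lists give no read counts, so the depth behind each region is unknown. Lists of build ce10 were not used, as no coordinate was converted.

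Positions in the deposited lists count from 0 and were turned into 1-based starts, ends and summits. Summits were counted within 60 kb of sdz-38, in bands of 10 kb and in windows of equal length laid outward from the stretch over the rest of chromosome II. Genes, promoters and sequences came from the RefSeq annotation and genome of WBcel235. Python 3.11.15, numpy 2.4.6, pandas 2.3.3, scipy 1.17.1 and matplotlib 3.10.9 were used, and the counting was tested on simulated summits. Intervals are exact Clopper-Pearson intervals at 95%. The genes named are the 4 members, protein-coding genes at optimal or pooled regions, those at the 5 strongest regions of each list, the 5 densest other windows per replicate with those tied with the last, and list members with a pooled summit. Genes of other regions described along the stretch (ZK892.6, R53.4, R53.5, psf-1, lec-2, ZK892.3 and let-268) are named for position. The members, lists and windows were chosen with earlier results of these data known. Alternatives were other window widths, stricter lists, other windows, other bands, other overlap rules, other gene distances and 1 replicate at a time.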

Additional observations from a re-analysis of the deposited data

How the results depend on the processing

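With 60 kb to each side, the mean over both replicates of the ratio of the stretch's count to the chromosome II median was 1.64 ± 0.144 (SD, n = 2). It moved to 3.48 at 20 kb, 2.49 at 30 kb and 1.39 at 100 kb, to 2.84 with the stronger 50% of each list and to 9 with the strongest 1000 regions. Merging overlapping regions of a list, an alternative chosen after seeing the data, gave 1.46 at 60 kb and 2.79 at 20 kb, and 11 and 10 of 125 windows then held as many sites as the stretch or more in replicate 1 and replicate 2. Midpoints in place of summits, other sets of windows and covered length gave 1.59 to 1.64, and single replicates 1.53 to 1.74. Summits lie at the middle of their regions in the stretch, so midpoints could hardly differ. All 14 alternatives stayed above 1, but they recount the lists on which the stretch was chosen, so nothing is read from this. The pooled count of 10 became 6 with the stronger 50% of the list. The first band at or under the chromosome mean began at 20 kb in both replicates. With bands of 5 kb it began at 20 kb in replicate 1 and at 5 kb in replicate 2, a mean of 12.5 kb, and with bands of 20 kb the mean was 30 kb. The mean overlap of the replicates, 51.6%, became 33.2% with summits within 100 bp of each other. No share on the rest of chromosome II is given under that rule, so whether overlap was higher near sdz-38 by it was not tested. The cause of these moves was not tested. No paired analysis was possible because the replicates form 1 group. Absence of a region says only that none was called at an unknown depth.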
